A study of Homo sapiens with 15 samples.

Results

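Integrins are the cell surface receptors that tie a cell to the matrix around it, and laminins are the large matrix proteins to which many of them bind. The genes of both families were examined in C4-2B cells, an established human prostate adenocarcinoma line derived from LNCaP, from which the study obtained neuroendocrine-like cells. They comprise 36 genes of the 58302 in the deposited tables, namely 18 integrin alpha chains, 8 integrin beta chains and 10 laminin chains. The 36 were listed by gene family, with earlier results of these data known. Each gene was found under its Ensembl identifier. RNA-seq libraries were labelled for 15 samples in 5 groups, and the 3 C4-2B libraries were analysed here. The labels give these cells as adenocarcinoma and wild type, with no drug and no siRNA named, grown with serum in RPMI medium. The labels do not say whether the 3 libraries came from separate cultures, so the spread between them may be technical. The libraries held 44992971, 49569026 and 46232076 counts in genes, of which the 36 genes took 0.192%, 0.191% and 0.191%.

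An integrin is a pair of 1 alpha and 1 beta chain, and a chain without a partner is kept inside the cell. The pair decides what is bound. Some pairs bind laminin, some collagen, and some the RGD sequence of fibronectin, vitronectin and related ligands, while the pairs of ITGB2 belong to leukocytes. A laminin is a trimer of 1 alpha, 1 beta and 1 gamma chain, named by the numbers of its chains, so that laminin 521 holds LAMA5, LAMB2 and LAMC1. Laminins are the network-forming proteins of the basement membrane, the sheet of matrix under an epithelium. In the normal prostate, basal cells sit on this sheet through the pair of ITGA6 and ITGB4, which anchors hemidesmosomes, and luminal cells lie above them.

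Levels are given as TPM, a count divided by exon length and scaled to the same total in each library, so that genes can be set side by side. A gene was called expressed if each of the 3 libraries had 1 TPM or more. Of the 36 genes, 16 were expressed by this rule, 11 of them at 10 TPM or more, whereas 61.2% of all protein-coding genes and 32.8% of all genes listed passed it. There were 6 of 18 alpha chains, 4 of 8 beta chains and 6 of 10 laminin chains among the 16. The levels spanned from LAMC1, at a mean of 179 TPM, to ITGB3, at 0 counts. As a check on the cells, markers of prostate epithelium were read beside them. All 5 luminal markers were expressed, and 0 of the 4 basal markers were, with summed basal levels of 1.01 to 1.13 TPM. In bulk RNA, fewer cells with a transcript and less of it per cell cannot be told apart.

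**Figure D1:**
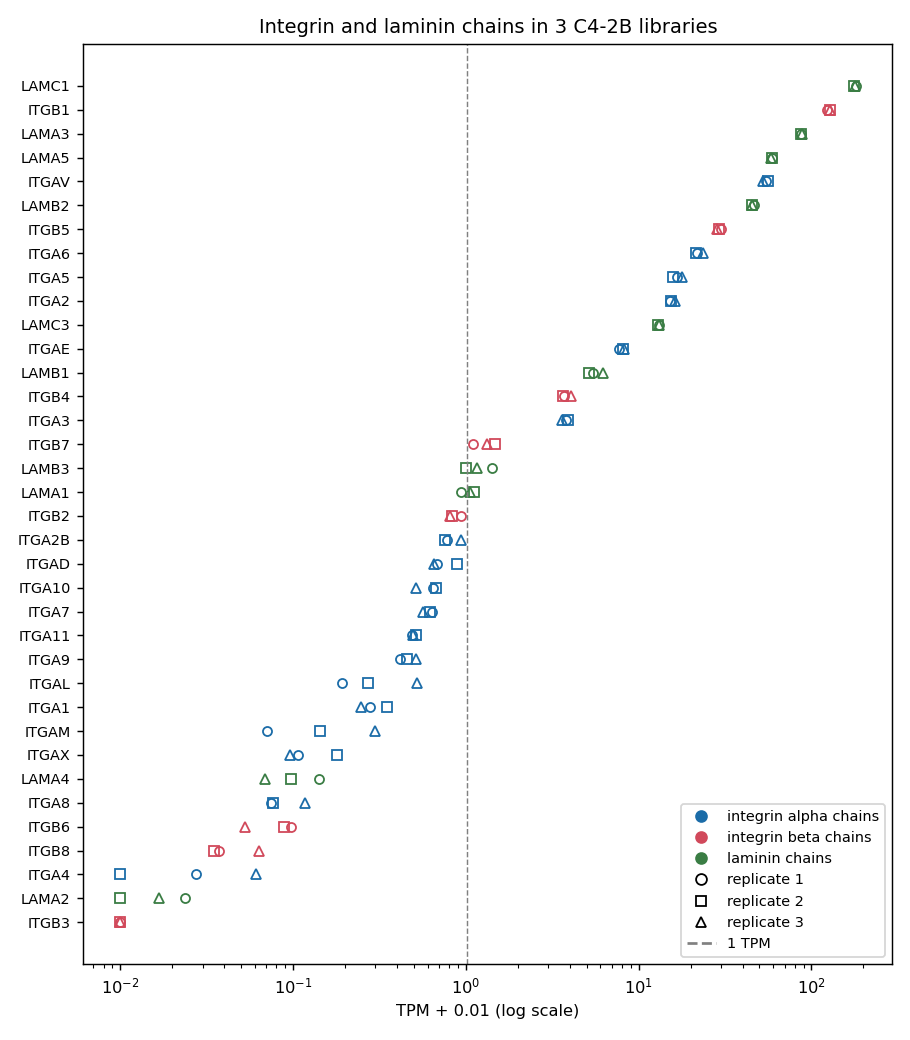
TPM plus 0.01 on a log axis for each of the 36 genes, ordered by mean, with 1 symbol for each of the 3 libraries and colour for the family. The libraries lie close together for the genes above 1 TPM (dashed line) and spread apart below it, and ITGB3 lies at 0 in each library.

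ITGB1, the beta chain that the largest number of alpha chains share, was the highest integrin gene. It lies on chromosome 10 (ENSG00000150093, 32900319 to 33005792, minus strand). Its level was 123, 128 and 129 TPM in the 3 libraries, a mean of 127 ± 2.85 (SD, n = 3). ITGB1 alone made up 78.2% ± 0.643 of the summed level of the 8 beta chains (SD, n = 3). It can pair with 12 of the alpha chains. The 12 together reached 115 ± 0.721 TPM (SD, n = 3), so the level of ITGB1 was 1.08, 1.11 and 1.11 times the sum of all its partners. On this scale the chain that all share lay just above its partners together in each library, but with CPM (counts scaled to the library, not to length) it lay below them, at a log2 ratio of -0.24 against 0.14 with TPM.

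ITGAV was the highest alpha chain and pairs with 5 beta chains, mostly to bind RGD ligands such as vitronectin and fibronectin. On chromosome 2 (ENSG00000138448, 186590065 to 186680901), its level was 54.5, 56.0 and 52.4 TPM, a mean of 54.3 ± 1.80 (SD, n = 3). It held 43.3% ± 1.72 of the summed level of the 18 alpha chains (SD, n = 3). Apart from ITGB1, the partner it met was ITGB5, a vitronectin receptor chain on chromosome 3 (ENSG00000082781, 124761948 to 124901418), at 30.03, 29.1 and 28.6 TPM. ITGB5 gave 99.6% of the level of the 4 beta partners of ITGAV other than ITGB1. ITGAV was 1.85 ± 0.0578 times the sum of those 4 partners (SD, n = 3), so ITGB5 was the lower chain of that pair.

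The other 3 partners of ITGAV were near 0. ITGB6, an epithelial chain that with ITGAV activates TGF-beta, had 8, 8 and 4 counts, and the exact 95% Poisson limits of the sum of 20 were 12.2 and 30.9. ITGB8, which shares that role, had 6, 6 and 12 counts, with limits of 15.4 and 35.7 for their sum. ITGB3, the chain of the platelet fibrinogen receptor and of the classic vitronectin receptor, had no count, which allows a level of up to 0.0298 TPM (3 counts over the 3 libraries, with the length outside overlaps). Of the exon bases of ITGB3, 51.6% lie under a longer gene on the same strand (ENSG00000259753) and reads there were counted for neither. That gene had 0 counts as well. These limits and intervals cover counting error only.

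ITGA5 pairs with ITGB1 as the classic fibronectin receptor. It stood at 16.7, 15.9 and 17.8 TPM, a mean of 16.8 ± 0.968 (SD, n = 3). ITGA8, the other RGD-binding partner of ITGB1, had 7, 8 and 12 counts. ITGA2B, which in platelets pairs with ITGB3, was at 0.815 ± 0.0978 TPM (SD, n = 3) and has no partner at a measurable level here. The RGD class of alpha chains therefore rested on ITGAV, with 75.4% ± 1.75 of its summed level, and on ITGA5.

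Among the 3 laminin-binding alpha chains, ITGA6 led. Its level was 21.9, 21.5 and 23.6 TPM (ENSG00000091409, chromosome 2, 172427354 to 172506282), a mean of 22.3 ± 1.11 (SD, n = 3). ITGA3, which binds laminins with an alpha 3 or alpha 5 chain, was lower at 3.77 ± 0.160 TPM (SD, n = 3). ITGA7, known as the laminin receptor of muscle, was at 0.597 ± 0.0396 TPM and was not expressed by the rule. ITGA6 thus made up 83.6% ± 1.27 of the level of this class (SD, n = 3).

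ITGA6 has 2 beta partners, ITGB1 and ITGB4. ITGB4, whose long cytoplasmic tail links to keratin filaments at hemidesmosomes, was at 3.68, 3.64 and 4.06 TPM on chromosome 17 (ENSG00000132470, 75721328 to 75757818). Its level was 0.170 ± 0.00192 of that of ITGA6 (SD, n = 3). ITGB1 was 5.67 times ITGA6, so ITGA6 was the lower chain of that pair, and ITGB4 the lower chain of the other. ITGB1, at 127 TPM, is however shared by 12 alpha chains that reached 115 TPM together. How the ITGA6 protein divides between its partners was not measured.

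The collagen-binding class has 4 alpha chains, each of which pairs with ITGB1. ITGA2 was at 15.1, 15.3 and 16.1 TPM (ENSG00000164171, chromosome 5, 52989326 to 53094779) and held 91.9% ± 0.981 of the class (SD, n = 3). ITGA10 followed at 0.601 ± 0.0859 TPM, then ITGA11 at 0.488 ± 0.0136 and ITGA1 at 0.282 ± 0.0539 (SD, n = 3 each), and none of these 3 was expressed. ITGA1 and ITGA2 are adjacent on chromosome 5, with 30.1 kb between them, and ITGA2 was 55.0 times ITGA1 in TPM. That ratio depends on exon lengths of 7910 bases for ITGA2 and 18566 for ITGA1. Not scaled for length, the means were 39.4 CPM for ITGA2 and 1.68 CPM for ITGA1. Other genes cover 6.39% of the exon bases of ITGA1. Both ITGA1 and ITGA2 read in the same direction.

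ITGA4, a chain of leukocytes, binds VCAM1 and fibronectin, and ITGA9 binds tenascin. ITGA4 had 2, 0 and 6 counts, and the interval of its 8 counts was 3.45 to 15.8. ITGA9 was at 0.454 ± 0.0497 TPM (SD, n = 3). Neither was expressed, so 7 of the 12 pairs of ITGB1 lacked an expressed alpha chain, with means from 0.0230 TPM (ITGA4) to 0.601 TPM (ITGA10).

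ITGAE, which on T cells in epithelia binds E-cadherin together with ITGB7, was at 7.67, 8.06 and 8.26 TPM, a mean of 7.99 ± 0.300 (SD, n = 3). Other genes cover 7.59% of the exon bases of ITGAE (chromosome 17, 3714628 to 3801243). ITGB7 was at 1.09, 1.47 and 1.31 TPM from 263 counts in all, the lowest level of the 16 expressed genes. Of the exon bases of ITGB7, 42.1% lie under ZNF740 on the other strand, and reads there were not counted. With the remaining exon bases as the length, ITGB7 was at 2.13 TPM. Counts did not use strand, so reads from the opposite strand in the other exons of these genes cannot be set apart.

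The chains of the ITGB2 pairs stood below 1 TPM. ITGB2, the beta chain that the leukocyte pairs share, was at 0.934, 0.823 and 0.797 TPM. Its alpha partners were ITGAD at 0.733 ± 0.130, ITGAL at 0.319 ± 0.173, ITGAM at 0.160 ± 0.115 and ITGAX at 0.117 ± 0.0448 TPM (SD, n = 3 each). Together the 4 alpha chains reached 1.33 ± 0.278 TPM (SD, n = 3). The 5 leukocyte markers summed to between 0.249 and 0.377 TPM in the 3 libraries, and PTPRC, the pan-leukocyte surface phosphatase, had 2, 0 and 0 counts. ITGAM, ITGAX and ITGAD lie side by side on chromosome 16, with 22.2 kb and 10.3 kb between them, and all 3 were low.

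To see which receptors the cells could form, 24 known integrin heterodimers were scored by the lower of their chains. RNA for both chains was expressed for 8 of the 24. In order of the lower chain, they were ITGAV with ITGB1 (54.3 TPM), ITGAV with ITGB5 (29.2), ITGA6 with ITGB1 (22.3), ITGA5 with ITGB1 (16.8), ITGA2 with ITGB1 (15.5), ITGA6 with ITGB4 (3.79), ITGA3 with ITGB1 (3.77) and ITGAE with ITGB7 (1.29 TPM). These pairs cover RGD, laminin, collagen and E-cadherin as ligands, and 5 of them hold ITGB1. The same alpha or beta chain stands in several pairs, so the values cannot be added. None of the 4 pairs of ITGB2, and neither pair of ITGB3, had an expressed chain on both sides. The alpha chain was the lower one in 17 of the 24 pairs and the beta chain in 7. RNA for both chains does not show that a pair is made or reaches the surface.

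**Figure D2:**
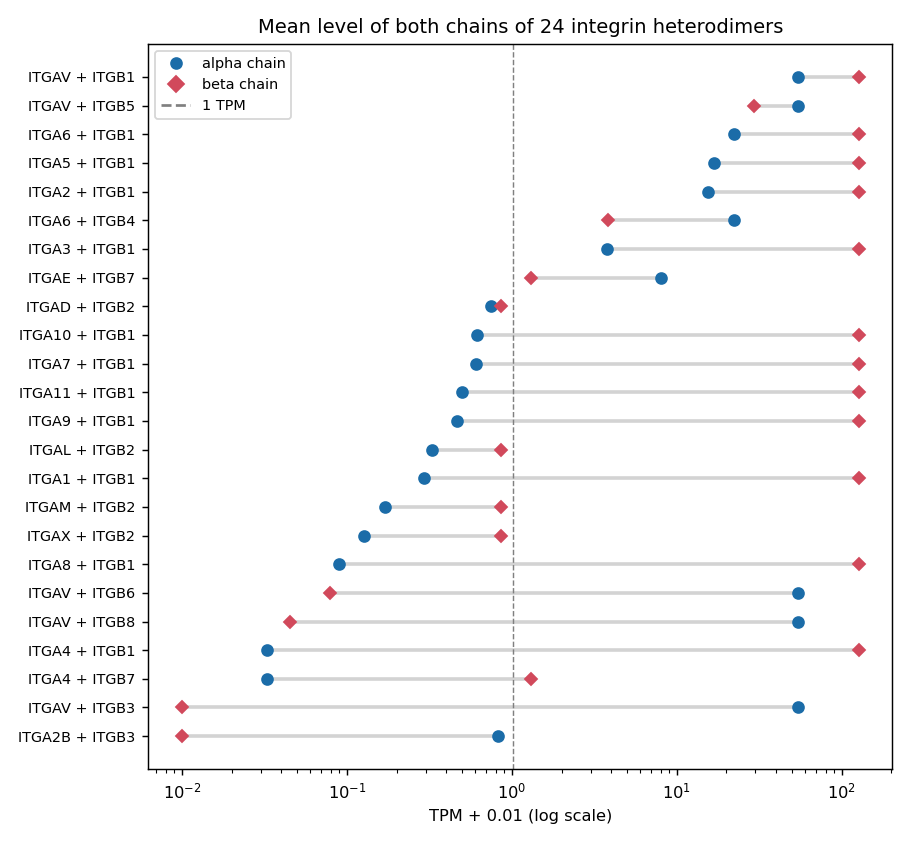
Mean TPM plus 0.01 over the 3 libraries, on a log axis, for the alpha chain (circle) and the beta chain (diamond) of each of 24 integrin pairs, ordered by the lower chain. In 8 pairs both chains lie right of 1 TPM (dashed line), and in the other pairs of ITGB1 the alpha chain lies left of it.

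Laminin chains were among the highest genes of both families. LAMC1, the gamma chain that most laminins share, was highest of all 36 genes at 180.4, 177 and 179 TPM (ENSG00000135862, chromosome 1, 183023460 to 183145592). Its mean of 179 ± 1.54 TPM (SD, n = 3) lay above 96.9% of protein-coding genes. LAMC3, a gamma chain of narrower distribution, was at 13.0296 ± 0.102 TPM (SD, n = 3), so LAMC1 held 93.2% ± 0.0146 of the level of both.

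Of the 5 alpha chains, LAMA3 and LAMA5 were expressed. LAMA3, best known from the epidermis and other epithelia where it anchors hemidesmosomes, was at 86.7, 87.2 and 87.7 TPM (ENSG00000053747, chromosome 18, 23689443 to 23955066). LAMA5, the most widespread alpha chain of adult epithelial basement membranes, was at 59.3, 59.3 and 57.97 TPM (ENSG00000130702, chromosome 20, 62307955 to 62367312). LAMA3 exceeded LAMA5 in every library and made up 59.2% ± 0.443 of the summed alpha level (SD, n = 3). Exon length is the union over all transcripts of a gene, and short and long forms of LAMA3 were not told apart.

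The other alpha chains were low. LAMA1, the alpha chain of the early embryo, was at 0.921, 1.10 and 1.04 TPM and missed the rule in 1 library, replicate 1, without which it passed. LAMA4, typical of vessels and mesenchyme, had 22, 16 and 10 counts. LAMA2, the chain of muscle and peripheral nerve, had 2, 0 and 1 counts, and the interval of their sum was 0.619 to 8.77 counts.

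Of the beta chains, LAMB2 was highest at 46.6, 45.4 and 45.4 TPM (ENSG00000172037, chromosome 3, 49121114 to 49133118). LAMB1, its close relative and the more common chain in early development, was at 5.47, 5.16 and 6.25 TPM. LAMB3, which in skin joins LAMA3 in the laminin of hemidesmosomes, was at 1.41, 0.992 and 1.16 TPM and missed the rule in replicate 2, without which it passed. LAMB2 held 87.1% ± 1.05 of the summed level of these 3 beta chains (SD, n = 3). Of the chains examined, the beta chains had the lowest sum, 52.6 ± 0.953 TPM, against 147 ± 0.460 TPM for alpha and 192 ± 1.64 TPM for gamma chains (SD, n = 3 each). LAMC1 stood at 3.48 ± 0.0217 times the level of LAMB1 and LAMB2 together, and the 5 alpha chains together reached 0.822 ± 0.00933 of LAMC1 (SD, n = 3 each). With CPM the alpha chains lay above LAMC1 instead, at a log2 ratio of 0.44 against -0.28 with TPM.

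Which basement membrane laminins the cells could form was scored for 13 trimers built of these chains. RNA for all 3 chains was expressed for 5 of them. Laminins 321 and 521 came first, both limited by LAMB2 at 45.8 TPM. Laminin 523 followed, limited by LAMC3 at 13.0296 TPM, and then laminins 311 and 511, both limited by LAMB1 at 5.62 TPM. All 5 hold LAMA3 or LAMA5. Laminins 111 and 121 stood at the edge of the rule, since LAMA1 had a mean of 1.02 ± 0.0933 TPM (SD, n = 3), and they passed without replicate 1. The 6 trimers of LAMA2 and LAMA4 lacked an expressed alpha chain, although their beta and gamma chains were expressed. Trimers with a chain outside the 36 genes were not scored. The same chain stands in several trimers, so these values cannot be added either. RNA for all 3 chains does not show that a trimer is made or secreted.

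**Figure D3:**
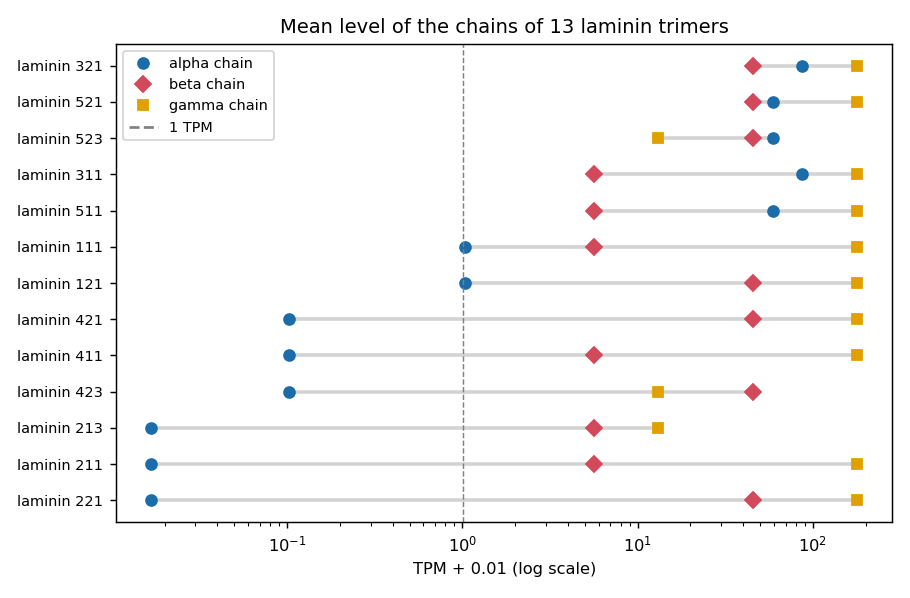
Mean TPM plus 0.01 over the 3 libraries, on a log axis, for the alpha, beta and gamma chain of 13 laminin trimers, ordered by the lowest chain. In the upper 5 trimers each chain lies well right of 1 TPM (dashed line). In laminins 111 and 121 the mean of LAMA1, 1.02 TPM, lies just right of the line, although replicate 1 was below it. In the trimers of LAMA2 and LAMA4 the alpha chain lies far left of the line.

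In the order of the means, 14 of the 35 steps from a gene to the next lower one had ranges over the 3 libraries that did not overlap. The 9 highest genes (LAMC1, ITGB1, LAMA3, LAMA5, ITGAV, LAMB2, ITGB5, ITGA6 and ITGA5) were each separated in this way from the gene before. The ranges of ITGA5 and ITGA2 overlapped, as did those of ITGB4 and ITGA3. Below ITGA3, the ranges of neighbours overlapped at every step except those from ITGA3 to ITGB7 and from ITGA7 to ITGA11, so the order there is not settled.

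Differences between the 3 libraries were then sought with a chi-square test of each gene's counts against library size, run on all 22229 genes with at least 30 counts. Of the 30 genes of both families with enough counts, 5 had a Benjamini-Hochberg adjusted p under 0.05 (ITGAV, ITGA5, ITGAL, ITGAM and LAMB1), against 17.3% of all genes tested. The mates of a read pair were counted separately, which widens counting noise. With each chi-square divided by 2 to allow for this, 0 of the 30 passed, against 0.792% of all genes, and 4 had an unadjusted p under 0.05, against 11.3% of all genes. With 1 replicate left out, 28 genes of both families had enough counts. Before this division, 4 of the 28 passed without replicate 1 (ITGAV, ITGA5, ITGA6 and LAMB1), against 6.76% of all genes tested. Without replicate 2, 1 passed (ITGAL) against 11.5%, and without replicate 3, 0 passed against 8.37%. With all 3 libraries, the share of the 30 that passed was near that of all genes. This test compares libraries and not conditions.

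With the allowance for mates, the Benjamini-Hochberg adjusted p-values of the chi-square test for these 5 genes were 0.272 (ITGAV), 0.450 (ITGA5), 0.415 (LAMB1), 0.274 (ITGAL) and 0.391 (ITGAM). The highest and lowest library differed by 0.10 on the log2 scale of CPM for ITGAV, 0.16 for ITGA5 and 0.27 for LAMB1. ITGAL with 17, 27 and 49 counts and ITGAM with 5, 12 and 24 counts had wider ranges, of 1.49 and 2.22, from few counts.

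Integrins act through proteins that bind their tails, and laminins through a sheet built with other proteins, so 5 further lists were examined, of 70 genes in all. Of these, 48 (68.6%) were expressed, against 61.2% of all protein-coding genes. The adhesion machinery list, which links integrins to actin, had 23 of 27 genes expressed. Talin 1 (TLN1), which binds beta tails and activates integrins, was at 87.3 ± 2.53 TPM, and vinculin (VCL), its partner under tension, at 77.04 ± 0.465 TPM (SD, n = 3 each). The actin crosslinkers filamin A (FLNA) and ACTN4 were highest at 196 ± 2.98 and 184 ± 0.698 TPM (SD, n = 3 each). The lowest were PARVG, a blood cell parvin, and LIMS2, with 0.0549 and 0.104 TPM.

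The list of hemidesmosome and tetraspanin partners had 6 of 7 genes expressed. The tetraspanins CD9, CD81 and CD151, membrane proteins that associate with integrins, were at 301 ± 5.19, 107 ± 2.56 and 105 ± 3.54 TPM, and PLEC, which joins ITGB4 to keratin filaments, was at 109 ± 1.84 TPM (SD, n = 3 each). COL17A1, the transmembrane collagen of hemidesmosomes, was at 0.431 ± 0.0270 TPM and DST, whose epithelial form is a hemidesmosome plaque protein, at 2.28 ± 0.0112 TPM (SD, n = 3 each). ITGB4, at 3.79 TPM, thus stood below PLEC and above COL17A1. The level of DST rests on an exon length of 42341 bases over all its forms, and by counts DST (4353) was above ITGB4 (1158).

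The non-integrin laminin receptors were expressed in 6 of 6 cases. Dystroglycan (DAG1), which binds the end domain of laminin alpha chains, was at 127 ± 3.96 TPM and the syndecan SDC4 at 92.5 ± 3.53 TPM (SD, n = 3 each). RPSA was listed at 761 ± 9.54 TPM (SD, n = 3), but it is also a ribosomal protein and has many near-identical pseudogenes, so its count is uncertain.

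Of the 12 basement membrane partners, 6 were expressed. Agrin (AGRN), a proteoglycan that binds laminin to dystroglycan, was at 77.04 ± 2.37 TPM, the collagen IV chain COL4A5 at 38.5 ± 1.000 TPM and perlecan (HSPG2) at 9.10 ± 0.126 TPM (SD, n = 3 each). The main collagen IV chain COL4A1 had 2, 6 and 7 counts and COL15A1 had none. Both nidogens, which link laminin to collagen IV, were below 1 TPM, with NID1 at 0.106 and NID2 at 0.376 TPM, named here after their values were seen. Exons of a gene on the other strand cover 29.96% of the exon bases of NID2, where reads were not counted.

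Among 18 other integrin ligands 7 were expressed. Fibronectin (FN1), the ligand of ITGA5 and ITGAV pairs, was at 430, 434 and 440.3 TPM, and E-cadherin (CDH1), the ligand of ITGAE with ITGB7, at 366, 366 and 376 TPM. Thrombospondin 1 (THBS1) followed at 63.9 ± 1.70 TPM and ICAM1, a ligand of ITGB2 pairs, at 15.7 ± 0.640 TPM (SD, n = 3 each). FN1 was thus higher than any of the 36 integrin and laminin genes. Osteopontin (SPP1), an RGD ligand, was among the 4 genes of this list with 0 counts.

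**Figure D4:**
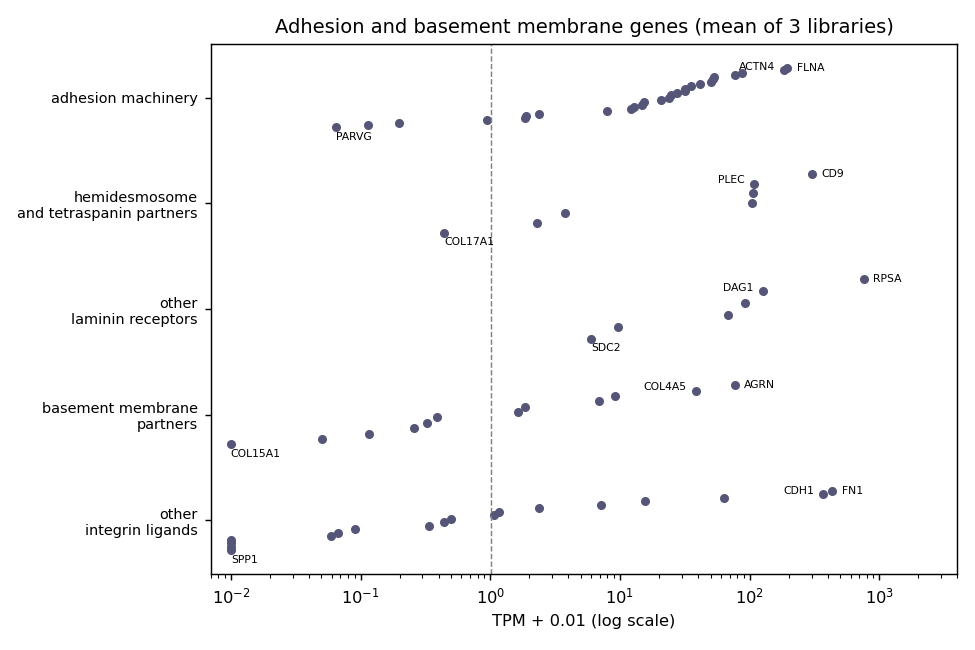
Mean TPM plus 0.01 over the 3 libraries, on a log axis, for the genes of 5 further lists, with the highest pair and the lowest gene of each list named (4 ligand genes share the lowest place). FN1, CDH1, CD9 and RPSA lie above 200 TPM, and the basement membrane list spreads from AGRN at 77.04 TPM to COL15A1 at 0.

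RefSeq promoter sequences (GRCh38.p14) were matched for 25 of the 36 genes, and the 250 bases before the transcription start were read for each, taking the start with the most CG dinucleotides where several were listed. Motifs were the letters CG and the GC box GGGCGG on either strand, and both can overlap. The 13 matched genes that were expressed held from 2 to 32 CG with a median of 23, and the 12 that were not held from 0 to 25 with a median of 9.5. The median over the 27305 genes of the promoter table was 12. A GC box was present for 10 of the 13 and for 4 of the 12, against 44.9% of all genes, and 94.2% of all genes held at least 1 CG. The ranges overlapped, since ITGA4 with 8 counts held 25 CG and ITGB7, which was expressed, held 2. For 21 of the 25 genes the start lay within 1 kb of the 5′ end of the gene in the deposited tables, and for 4 it lay farther inside, by 14.1 kb (ITGB5), 47.6 kb (ITGB1), 71.6 kb (ITGB6) and 184 kb (LAMA3). No test was made of these counts.

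Sequences of 4 promoters are shown 5′ to 3′ in the direction of the gene, with each CG in capitals. They are those of the highest gene (LAMC1), of the adjacent pair that differed in level (ITGA2 and ITGA1) and of the gene with no CG (ITGB6), whose start is 1 of the 4 that lie well inside the gene.
LAMC1 (chr1:183023170-183023419, plus strand): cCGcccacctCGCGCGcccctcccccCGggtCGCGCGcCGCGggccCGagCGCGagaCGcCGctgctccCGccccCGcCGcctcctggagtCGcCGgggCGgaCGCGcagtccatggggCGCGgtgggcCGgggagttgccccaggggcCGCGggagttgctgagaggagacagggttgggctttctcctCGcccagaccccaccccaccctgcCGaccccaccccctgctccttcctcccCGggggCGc
ITGA2 (chr5:52989102-52989351, plus strand): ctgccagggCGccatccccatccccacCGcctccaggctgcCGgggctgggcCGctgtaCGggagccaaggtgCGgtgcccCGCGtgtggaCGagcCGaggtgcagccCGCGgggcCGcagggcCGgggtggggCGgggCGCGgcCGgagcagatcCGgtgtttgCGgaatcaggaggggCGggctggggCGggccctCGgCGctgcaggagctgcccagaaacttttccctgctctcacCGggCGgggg
ITGA1 (chr5:52787666-52787915, plus strand): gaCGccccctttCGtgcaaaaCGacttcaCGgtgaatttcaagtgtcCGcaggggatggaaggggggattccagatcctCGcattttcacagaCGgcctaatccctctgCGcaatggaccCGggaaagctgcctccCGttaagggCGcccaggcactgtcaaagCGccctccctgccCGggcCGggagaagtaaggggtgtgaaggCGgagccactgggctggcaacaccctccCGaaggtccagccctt
ITGB6 (chr2:160200273-160200522, minus strand): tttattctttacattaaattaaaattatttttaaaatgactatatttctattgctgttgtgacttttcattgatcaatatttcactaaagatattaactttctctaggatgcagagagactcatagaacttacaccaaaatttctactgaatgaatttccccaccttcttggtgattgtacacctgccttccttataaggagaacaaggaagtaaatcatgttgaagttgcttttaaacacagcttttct
LAMC1 at 179 TPM held 32 CG and ITGA2 at 15.5 TPM held 26. ITGA1 at 0.282 TPM held 16, above the median of all genes, and ITGB6 at 0.0695 TPM held 0.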

How the data were processed

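RNA-seq libraries of C4-2B cells were strand-specific, made after ribosomal RNA depletion, and sequenced from both ends. Reads were aligned by the authors to GRCh38 with STAR 2.7.0f, per the submitters' processing notes. The deposited tables hold raw counts, made with featureCounts 1.6.3 on Ensembl release 90 genes, and their headers show no option for strand or pairs. Mates were therefore counted separately, without regard to strand, and reads over exons of more than 1 gene or aligned to several places were not counted. Gene length, another value in the authors' deposited tables, is the union of exons. It was recomputed from the coordinates and matched for all 58302 genes.

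Symbols were matched by identifier for 57532 genes and gene types came from GENCODE release 44, also on GRCh38. TPM was computed from the deposited counts and lengths over all genes, and means and SDs are over the 3 libraries. Since a few short, abundant RNAs take part of the TPM total, a denominator without mitochondrial genes and the 10 most abundant genes multiplied every TPM by 1.45. Libraries were compared by chi-square, as the fit of 3 counts (2 degrees of freedom) to library sizes scaled by TMM (edgeR 4.0.16), with Benjamini-Hochberg adjustment over all genes with at least 30 counts and a threshold of 0.05. No contrast between groups could be fitted, as 1 group was analysed here. The test was checked on simulated counts. Where both mates of a pair were counted, as here, it passed too many unchanged genes unless the chi-square was divided by 2. Those simulated counts held no other source of spread between libraries. In the data, 11.3% of all genes tested still had an unadjusted chi-square p under 0.05 after the division. Other sources of spread were not tested. Exact Poisson limits at 95% are given for sums of counts. They cover counting error only and are too narrow, as both mates of a pair count and PCR copies carry no mark.

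The 36 genes are integrin and laminin genes listed by family. The pairs, trimers and 5 further lists are textbook knowledge, and the members and lists were chosen with earlier results of these data known. From each further list, up to 4 of the highest and 2 of the lowest genes are named. Neighbours in the order of means were compared by whether their ranges overlap. Markers of luminal, basal, leukocyte, fibroblast, endothelial and platelet cells were read as a check. In the last 3 lists, 1 of 5, 1 of 4 and 1 of 3 genes were expressed (COL1A1, VWF and GP1BA). Python 3.11.15, R 4.3.3 and DESeq2 1.42.0 (size factors of an alternative) were used.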

Additional observations from a re-analysis of the deposited data

How the results depend on the processing

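No paired analysis was possible because only C4-2B was analysed here, which leaves no second group to pair it with. The 2 laminin chain ratios were chosen after the data were examined. With CPM, which is not scaled for length, in place of TPM, 25 of the 36 genes and 13 heterodimers were expressed, and ITGB1 fell below the sum of its alpha partners (log2 ratio -0.24 against 0.14), since those have longer exons. For the same reason the summed laminin alpha chains rose above LAMC1 (0.44 against -0.28). Other log2 ratios with CPM were 1.23 for ITGAV against its beta partners other than ITGB1 (0.89 with TPM), -2.51 for ITGB4 against ITGA6 (-2.56) and 2.06 for LAMC1 against LAMB1 and LAMB2 (1.80). With exon lengths outside overlaps they were 0.11 for ITGB1 and -2.64 for ITGB4. The heterodimers that CPM added were those of ITGB1 with ITGA1, ITGA7, ITGA9, ITGA10 and ITGA11. A threshold of 5 TPM left 5 heterodimers, losing ITGA3 with ITGB1, ITGA6 with ITGB4 and ITGAE with ITGB7. At 0.5 TPM there were 11, with ITGA7 and ITGA10 each joining ITGB1, and the leukocyte pair of ITGAD and ITGB2 added. The reduced denominator added ITGA2B, ITGB2, LAMA1 and LAMB3, for 20 of the 36 genes, but the heterodimers stayed at 8. The 5 trimers were kept under every alternative run, and 111 and 121 joined them at a threshold of 0.5 TPM, with a mean of at least 1 TPM, with CPM, with the reduced denominator and without replicate 1. Of the further lists' 70 genes, the number expressed stayed within 1.5 times of 48. With the chi-square divided by 2, 0 of the 30 members tested and 176 of all genes tested (0.792%) differed between libraries. Without the division these were 5 and 3835 (17.3%). Leaving out 1 replicate gave from 0 to 4 of the 28 members then tested and from 1383 to 2323 of all genes (6.76% to 11.5%). The lowest number of members came without replicate 3, and without replicate 2 it was 1 (ITGAL). Other scalings and count minimums kept the same 5 genes. No member's mean moved by more than 1.5 times when 1 replicate was left out, except ITGAM (0.160 to 0.0970 TPM) and ITGA4 (0.0230 to 0.00873) without replicate 3 and LAMA2 (0.00679 to 0.00335) without replicate 1. Counts under about 10 per library limit the levels of ITGA8, ITGB6, ITGB8, ITGA4 and LAMA2.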
